A study of Mus musculus with 12 samples.

Results

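The transcripts of 10 Notch pathway genes (the members) were followed across the 3 groups of cultures: the receptors Notch1, Notch2 and Notch3, the ligands Dll1 and Jag1, the target genes Hes1, Hes5, Hey1 and Hey2, and the feedback regulator Nrarp. The genes were chosen by name for their roles in the pathway, with earlier results of these data known, and were 10 of the 55901 genes in the table. Notch1, Notch2 and Notch3 rose after injury, Notch1 and Notch3 rose further with transforming growth factor-β1 (TGF-β1), and Hey1 rose with TGF-β1, while no call was made for Dll1, Jag1, Hes1, Hes5 or Nrarp. The further rise of Notch1 was close to the threshold and was lost in several other ways of testing. The call of Notch3 after injury was also lost in some other ways of testing and with some libraries left out. That of Hey1 with TGF-β1 against Trauma was lost with some libraries left out, as given below.

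Notch receptors are single-pass membrane proteins that are activated by ligands of the Delta-like and Jagged families on a neighbouring cell. Ligand binding exposes the receptor to cleavage by ADAM proteases and then by γ-secretase, and the freed intracellular domain enters the nucleus, where it joins the DNA-binding protein RBPJ and Mastermind coactivators on target promoters. In the cortex the pathway is known for holding neural progenitors and radial glia undifferentiated through the Hes and Hey repressors, and it is also used by mature neurons, astrocytes and the mural cells of vessels.

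RNA sequencing was carried out on primary cortical neurons of C57BL/6J mice, taken within 24 h of birth, in 3 groups with 4 libraries each. The Control cultures received neither scratch nor TGF-β1, the Trauma cultures were scratched with a needle and kept for 24 h, and the Trauma+TGF-β1 cultures (Tra_TGF in the labels) were scratched and given 10 ng/mL TGF-β1 for 24 h. The scratch is an in vitro model of mechanical injury, and the comparisons ask what injury does to the neurons and what TGF-β1 changes in injured neurons. There was no group with TGF-β1 and no scratch. Below, "after injury" refers to Trauma and "with TGF-β1" to Trauma+TGF-β1. All cultures had been treated with arabinosylcytosine, which kills dividing cells, to limit glia. The labels do not say whether the 4 libraries of a group came from separate cultures or animals, so the p-values measure the spread between these libraries, which may be technical.

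Between 15052486 and 17381671 reads fell on genes in each library, and levels are given as FPKM (fragments mapped per kilobase of exon, scaled for library depth), which take gene length into account. Neuronal markers were abundant, with a summed level over 9 genes (Tubb3, Map2, Rbfox3 and others) of 1378 to 1438 FPKM in Control, against 1232 to 1313 in Trauma and 1164 to 1205 with TGF-β1. Most of this difference was Tubb3 (960.0, 842.0 and 739.0 FPKM), and the list went both ways: in Trauma+TGF-β1 against Control Map2, Gad1 and Gad2 were called higher and Tubb3, Rbfox3, Syt1 and Slc17a7 lower, with a median of 0.055 on the log2 scale. Glia were present as well: the 10 markers of astrocytes and radial glia summed to 340.0 to 389.0 FPKM in Control, 435.0 to 538.0 after injury and 424.0 to 461.0 with TGF-β1. In such bulk libraries fewer cells of a type and less RNA per cell cannot be told apart. The share of reads on mitochondrial genes was 2.12% to 2.97% in Control, 2.17% to 2.30% after injury and 2.69% to 3.23% with TGF-β1, and its part in the results was not tested. Control replicate 1 stood apart on the second principal component (58.9, against at most 9.02 in the other Control libraries). Without it the same members were called in each comparison.

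Promoter sequences are shown for the receptors, which moved together after injury, and for the target genes that carried the core letters of the RBPJ binding site. The windows were RefSeq promoters of GRCm38.p6, from 250 bases before to 50 bases after a transcription start, and were found for 8 of the 10 genes (9 windows, of which 2 belong to Dll1). Hes1 and Hey1 had no window, so their promoters were not searched for either sequence. Both strands were searched for the RBPJ core GTGGGAA and for the N-box CACNAG, a sequence that Hes repressors can bind. The RBPJ core was found in the windows of 2 genes, Hes5 (chr4:154960673-154960972, plus strand) and Hey2 (chr10:30842734-30843033, minus strand). Each held 1 copy on each strand, in capitals here, and 6.38% of all 32851 promoter windows held at least 1 copy.
Hes5: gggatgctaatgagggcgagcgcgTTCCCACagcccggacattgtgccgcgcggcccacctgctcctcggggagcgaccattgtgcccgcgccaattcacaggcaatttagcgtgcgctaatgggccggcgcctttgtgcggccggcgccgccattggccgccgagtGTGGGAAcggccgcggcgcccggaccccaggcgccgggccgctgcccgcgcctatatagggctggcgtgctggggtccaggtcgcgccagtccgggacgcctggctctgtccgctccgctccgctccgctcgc
Hey2: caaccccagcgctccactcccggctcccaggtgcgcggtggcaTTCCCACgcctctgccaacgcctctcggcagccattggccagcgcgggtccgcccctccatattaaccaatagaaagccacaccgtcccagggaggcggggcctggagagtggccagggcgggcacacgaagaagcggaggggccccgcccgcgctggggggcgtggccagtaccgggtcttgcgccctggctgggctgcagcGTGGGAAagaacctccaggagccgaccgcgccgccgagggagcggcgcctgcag

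The N-box was found in 5 of the 9 windows, those of the 3 receptors, Nrarp and 1 of the windows of Dll1. It is a short and common sequence, held by 42.5% of all windows. In the receptor promoters the matches on either strand are in capitals, and the run of 8 capitals in Notch1 is a palindrome that holds a match on both strands. The windows lay at chr2:26503773-26504072 (Notch1, minus strand), chr3:98013288-98013587 (Notch2, plus strand) and chr17:32166841-32167140 (Notch3, minus strand). They were 68.3%, 73.0% and 70.0% G and C. A match of letters is a description and says nothing on whether a factor was bound in these cells.
Notch1: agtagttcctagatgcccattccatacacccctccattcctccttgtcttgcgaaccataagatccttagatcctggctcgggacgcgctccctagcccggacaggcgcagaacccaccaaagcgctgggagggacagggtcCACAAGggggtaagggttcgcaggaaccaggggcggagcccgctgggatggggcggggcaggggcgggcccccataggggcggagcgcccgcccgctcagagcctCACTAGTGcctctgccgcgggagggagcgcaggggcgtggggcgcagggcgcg
Notch2: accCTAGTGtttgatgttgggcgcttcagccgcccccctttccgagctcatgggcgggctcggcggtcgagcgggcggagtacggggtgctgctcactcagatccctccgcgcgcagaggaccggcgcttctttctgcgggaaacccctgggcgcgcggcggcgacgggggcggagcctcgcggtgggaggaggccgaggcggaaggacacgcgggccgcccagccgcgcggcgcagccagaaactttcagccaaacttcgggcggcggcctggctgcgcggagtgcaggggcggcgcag
Notch3: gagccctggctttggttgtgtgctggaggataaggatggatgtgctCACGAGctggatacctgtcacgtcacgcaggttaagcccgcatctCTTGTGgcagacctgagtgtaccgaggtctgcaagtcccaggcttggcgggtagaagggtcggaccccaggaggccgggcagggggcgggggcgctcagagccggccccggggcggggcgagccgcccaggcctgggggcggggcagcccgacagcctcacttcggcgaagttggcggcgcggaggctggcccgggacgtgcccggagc

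Hey1 had the highest level of the 10 genes in each group, with 7.95 ± 0.988 FPKM in Control, 9.17 ± 0.521 after injury and 11.6 ± 0.445 with TGF-β1 (mean ± SD, n = 4). In Control it was followed by Dll1 (4.34 FPKM), Hes5 (3.55), Nrarp (3.3) and Notch2 (3.04), whose neighbours in this order overlapped between libraries. Notch3 (1.63 FPKM), Hes1 (1.6) and Notch1 (1.23) came next, again with overlapping neighbours. Jag1 (0.837 FPKM) and Hey2 (0.371) were lowest, and each lay below the gene before it in every library. In Trauma+TGF-β1 the order was another: Nrarp (4.19 FPKM), Notch2 (4.08), Notch3 (4.01) and Dll1 (3.98) overlapped with their neighbours, and Notch1 (2.49) stood above Hes5 (1.94) without overlap. Jag1 and Hey2 were lowest in all 3 groups.

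**Figure D1:**
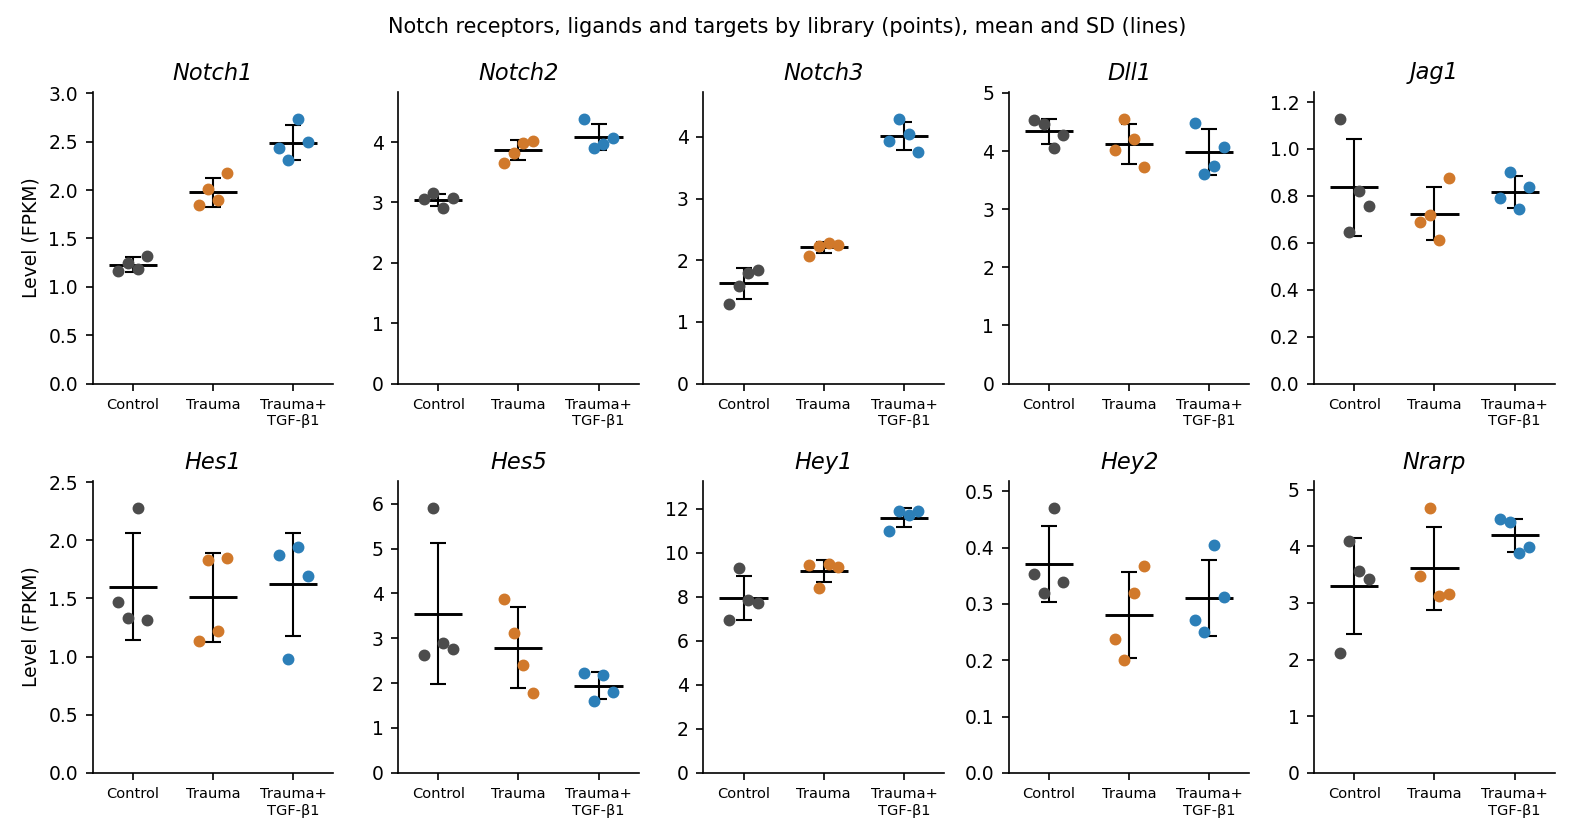
Level in FPKM (vertical axis, from 0) of the 10 genes in the 4 libraries of each group (points), with the mean and SD as black lines. Notch3 sits at 1.29 to 1.84 in Control, 2.07 to 2.28 after injury and 3.75 to 4.3 with TGF-β1, whereas the points of Dll1, Jag1, Hes1 and Nrarp overlap between all groups.

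In Trauma against Control 3 of the 9 members tested were called, all higher in Trauma, where 3.3% of the 15016 genes tested were called higher (6.0% in either direction). The tests were made with limma on log2(FPKM + 0.1), and a gene was called where the adjusted p did not exceed 0.05. The fold changes are on this scale and understate the change of genes with low levels. With TGF-β1 against Trauma 3 members were called, all higher with TGF-β1, where 4.4% of the genes were called higher (12.1% in either direction). In Trauma+TGF-β1 against Control 4 members were called, all higher, against 6.14% of all genes (16.6% in either direction). No member was called lower in any of these. Counted by libraries that did not overlap, 3 members were higher and 0 lower in Trauma than in Control (6.25% and 6.69% of all genes), 3 were higher and 0 lower in Trauma+TGF-β1 than in Trauma (10.2% and 12.0%), and 4 were higher and 1, Hes5, lower in Trauma+TGF-β1 than in Control (7.94% and 10.6%). The median difference of the 9 members was 0.147 on the log2 scale in Trauma against Control, 0.161 in Trauma+TGF-β1 against Trauma and 0.371 in Trauma+TGF-β1 against Control, and that of all tested genes was -0.0118, 0.0025 and -0.009. The 3 comparisons share libraries in pairs, so they are not independent of each other.

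The split of all called genes into higher and lower depended on the scaling. In Trauma against Control 496 genes were called higher and 405 lower, and 655 and 223 with FPKM rescaled to the total of reads on genes. For Trauma+TGF-β1 against Trauma the numbers were 661 and 1158, and 1125 and 927 after quantile normalization. For Trauma+TGF-β1 against Control they were 922 and 1565, 1134 and 918 after quantile normalization, and 1339 and 1095 on the total of reads on genes. The receptors and Hey1 were higher in the same direction under each of these scalings where they were called.

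**Figure D2:**
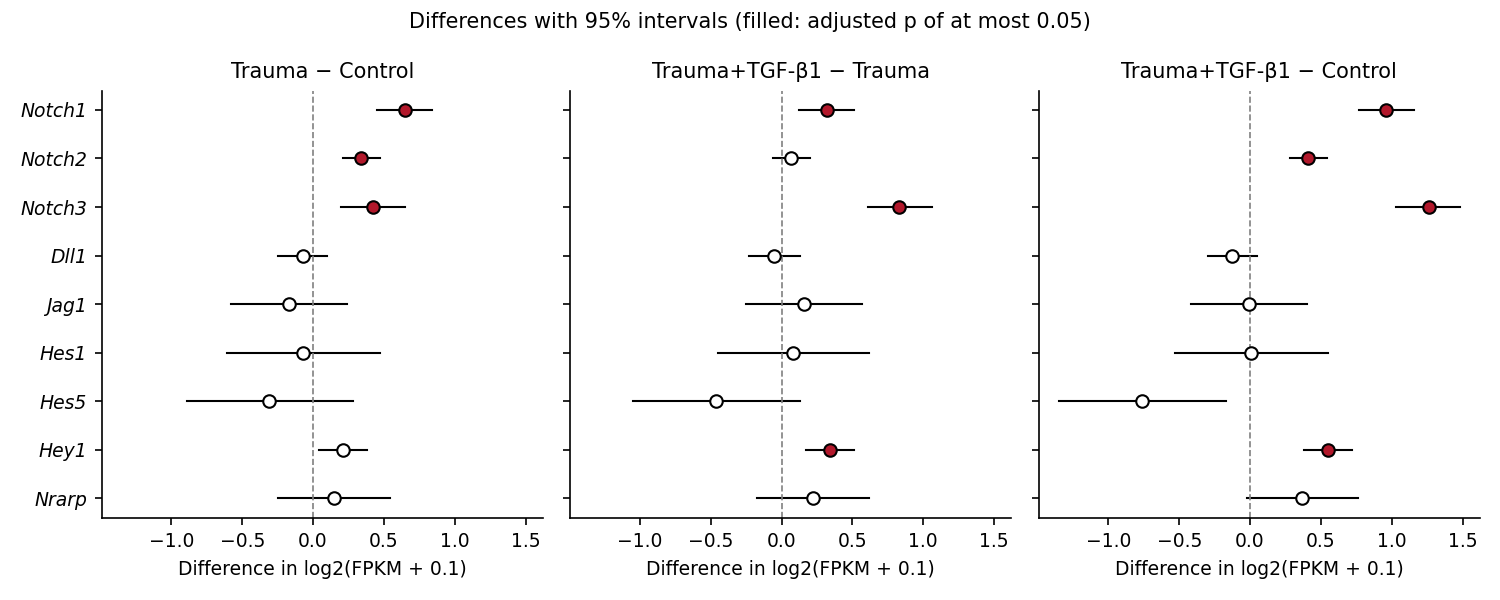
Difference in log2(FPKM + 0.1) of the 9 tested genes in each comparison (points) with 95% confidence intervals (lines), filled where limma's adjusted p did not exceed 0.05. The intervals of the receptors lie above 0 except for Notch2 in Trauma+TGF-β1 against Trauma (-0.06 to 0.2), and that of Hes5 in Trauma+TGF-β1 against Control runs from -1.35 to -0.17 without passing the adjusted threshold.

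Notch1 (ENSMUSG00000026923, chr2:26457903-26516663, minus strand) is the receptor best known from neural progenitors. Its level was 1.16, 1.25, 1.18 and 1.32 FPKM in the 4 Control libraries, 1.85, 2.01, 1.9 and 2.18 in Trauma and 2.44, 2.31, 2.74 and 2.5 in Trauma+TGF-β1. The 3 groups did not overlap, and each library of a group was above each library of the group before it. Between 254 and 630 reads per library stood behind these values.

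Notch1 rose 1.57-fold in Trauma against Control (log2 difference 0.65, SE 0.09, limma adjusted p = 0.00153) and 1.95-fold in Trauma+TGF-β1 against Control (0.96, adjusted p = 6.4e-05). The further rise with TGF-β1 against Trauma was 1.25-fold (0.32, 95% interval 0.12 to 0.51, limma adjusted p = 0.0416) and was close to the threshold. It was lost after a correction for gene length (0.20, adjusted p = 0.238), and the exon length of Notch1 is 14232 bases. It was also lost in the test without a filter on low levels and when any of the 8 Trauma or Trauma+TGF-β1 libraries was left out (0.27 to 0.36 over all libraries left out in turn, adjusted p at most 0.101).

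Notch2 (ENSMUSG00000027878, chr3:98013527-98150361, plus strand), a receptor also prominent in glia, had the highest level of the 3 receptors in Control and Trauma. It was 3.05, 3.15, 2.9 and 3.07 FPKM in Control, 3.66, 3.82, 3.98 and 4.01 after injury and 4.39, 3.9, 3.97 and 4.06 with TGF-β1. All Control libraries were below all injured libraries, and the Trauma and Trauma+TGF-β1 libraries overlapped.

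Notch2 rose 1.26-fold after injury (log2 difference 0.34, SE 0.06, limma adjusted p = 0.00644) and was 1.33-fold higher in Trauma+TGF-β1 than in Control (0.41, adjusted p = 0.00114). Between Trauma+TGF-β1 and Trauma the difference was 0.07 on the log2 scale, with a 95% interval of -0.06 to 0.2 (limma adjusted p = 0.446).

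Notch3 (ENSMUSG00000038146, chr17:32120820-32166852, minus strand) is best known from the smooth muscle cells and pericytes of vessels. Its level was 1.29, 1.59, 1.8 and 1.84 FPKM in Control, 2.07, 2.23, 2.28 and 2.24 after injury and 3.94, 4.3, 4.05 and 3.75 with TGF-β1, from 161 to 543 reads per library. The groups did not overlap, and the step from Trauma to Trauma+TGF-β1 was wider than that from Control to Trauma.

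With TGF-β1, Notch3 rose 1.78-fold against Trauma (log2 difference 0.83, SE 0.103, limma adjusted p = 0.00264) and 2.39-fold against Control (1.26, adjusted p = 2.3e-05). Against Trauma its difference was above that of 98.1% of the genes tested. The rise in Trauma against Control was 1.34-fold (0.42, SE 0.103, limma adjusted p = 0.0325). This last call was lost without a filter on low levels (adjusted p = 0.0692), after quantile normalization (0.0527), in a fit of the 8 libraries of these groups alone (0.102) and when Control replicate 2 or Trauma replicate 2, 3 or 4 was left out (0.33 to 0.48 over all libraries left out in turn, adjusted p at most 0.0882).

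The balance between the receptors was compared by ratios within a library. The ratio of Notch3 to Notch2 in FPKM was 0.538 ± 0.0909 in Control, 0.571 ± 0.0105 after injury and 0.986 ± 0.0932 with TGF-β1 (n = 4 libraries each). It was higher in each Trauma+TGF-β1 library (0.898 to 1.1) than in any other library (at most 0.62). A two-sided exact permutation test gave p = 0.0286 against Trauma and against Control, the smallest that 4 libraries against 4 allow, and 0.0571 after adjustment over 12 tests of this kind. Trauma and Control overlapped (exact p = 0.571). The ratio of Notch1 to Notch2 was 0.404 ± 0.0211, 0.513 ± 0.029 and 0.613 ± 0.057 in the 3 groups, with no overlap between neighbouring groups (exact p = 0.0286, adjusted p = 0.0571 in each comparison). These ratios were chosen after the levels had been seen.

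Summed over the 3 receptors, the level was 5.5 to 6.24 FPKM in Control, 7.58 to 8.44 after injury and 10.3 to 10.8 with TGF-β1. Notch2 made up 51.6% of the sum in Control, 48.0% after injury and 38.5% with TGF-β1, and Notch3 made up 27.6%, 27.4% and 37.9%. Notch1 held 20.8%, 24.6% and 23.6%. Notch2 was the largest part in Control (49.2% to 55.4% in its libraries), whereas Notch2 and Notch3 held near equal parts with TGF-β1.

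**Figure D3:**
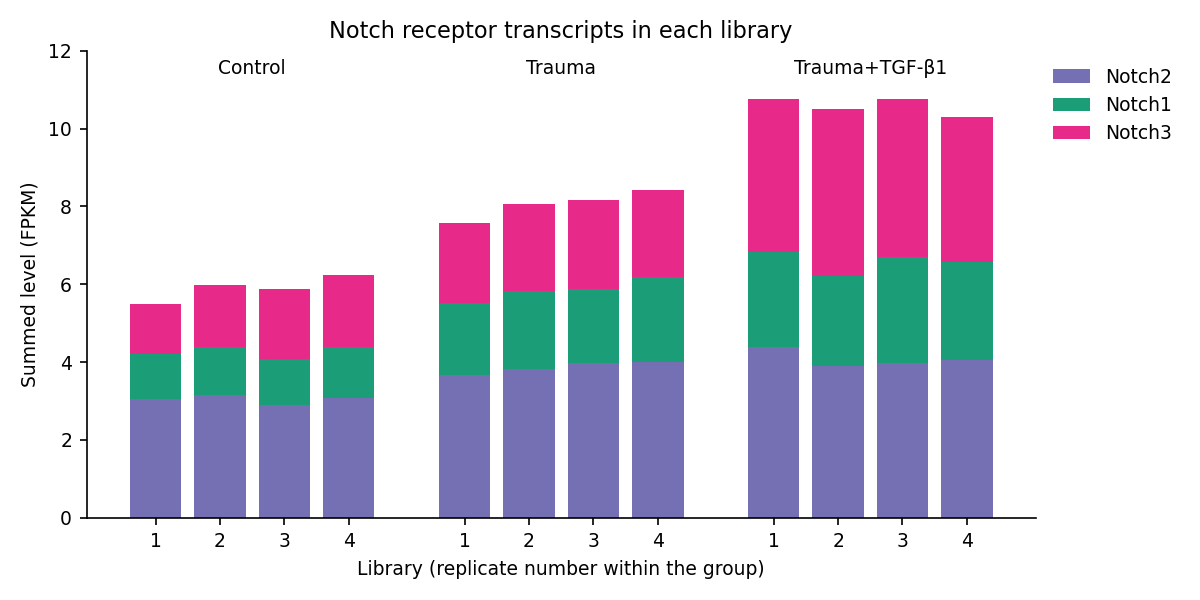
Level in FPKM (vertical axis, from 0) of Notch2, Notch1 and Notch3 stacked for each of the 12 libraries, in 3 groups of 4. The summed height is 5.5 to 6.24 in Control, 7.58 to 8.44 after injury and 10.3 to 10.8 with TGF-β1, and the Notch3 part is widest in the last group.

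The ligands gave no call. Dll1 (ENSMUSG00000014773, chr17:15367354-15376872, minus strand), the Delta-like ligand of neural progenitors, was 4.54, 4.47, 4.06 and 4.27 FPKM in Control, 4.01, 4.55, 4.2 and 3.73 after injury and 4.48, 3.6, 3.75 and 4.07 with TGF-β1. The groups overlapped. The log2 difference was -0.07 in Trauma against Control (95% interval -0.25 to 0.1) and -0.05 in Trauma+TGF-β1 against Trauma (-0.23 to 0.13), with limma adjusted p of 0.684 and 0.724.

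Jag1 (ENSMUSG00000027276, chr2:137081456-137116644, minus strand), a Jagged ligand, was 1.13, 0.646, 0.819 and 0.757 FPKM in Control, 0.689, 0.718, 0.612 and 0.878 after injury and 0.789, 0.902, 0.742 and 0.836 with TGF-β1. Control replicate 1 was above all other libraries and the groups overlapped. Its intervals were wider than those of Dll1, from -0.58 to 0.24 in Trauma against Control and from -0.25 to 0.57 in Trauma+TGF-β1 against Trauma (limma adjusted p = 0.687 and 0.625). Changes of Jag1 within these intervals remain compatible with the values, which rested on 63 to 101 reads per library.

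Of the target genes, Hey1 was called and Hes1 and Hes5 were not. Hey1 (ENSMUSG00000040289, chr3:8663359-8667256, minus strand), a repressor of the Hey family, was 6.95, 9.31, 7.85 and 7.71 FPKM in Control, 9.46, 8.39, 9.48 and 9.35 after injury and 11.0, 11.9, 11.7 and 11.9 with TGF-β1. All 4 Trauma+TGF-β1 libraries were above the 8 others, and Control and Trauma overlapped through Control replicate 2 and Trauma replicate 2.

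Hey1 rose 1.26-fold in Trauma+TGF-β1 against Trauma (log2 difference 0.34, SE 0.078, limma adjusted p = 0.019) and 1.46-fold against Control (0.55, adjusted p = 0.00101). The call against Trauma was lost when Trauma replicate 2, Trauma+TGF-β1 replicate 2 or Trauma+TGF-β1 replicate 4 was left out (0.30 to 0.37 over all libraries left out in turn, adjusted p at most 0.0577). In Trauma against Control the difference was 0.21 (95% interval 0.04 to 0.38, limma adjusted p = 0.151), and it passed the threshold without Control replicate 2 (0.29, adjusted p = 0.0267).

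Hes5 (ENSMUSG00000048001, chr4:154960923-154962371, plus strand), the classical Notch target of radial glia, was 2.62, 5.91, 2.89 and 2.76 FPKM in Control, 3.88, 3.11, 2.41 and 1.77 after injury and 2.22, 1.6, 2.18 and 1.79 with TGF-β1. Its promoter, like that of Hey2, held 2 copies of the RBPJ core, as printed above. The 4 Trauma+TGF-β1 libraries lay below the 4 Control libraries, as did those of 10.6% of all genes tested, and Trauma overlapped with both. The log2 difference between Trauma+TGF-β1 and Control was -0.76 (SE 0.27, 95% interval -1.35 to -0.17), with a limma adjusted p of 0.0748, which misses the threshold. Against Trauma it was -0.46 (adjusted p = 0.295), and Trauma against Control gave -0.31 (adjusted p = 0.599). Control replicate 2, at 5.91 FPKM, was far above the other Control libraries, and without it the difference was -0.037 in Trauma against Control and -0.494 in Trauma+TGF-β1 against Control. Without Trauma replicate 4 the former was -0.116. The difference between Trauma+TGF-β1 and Trauma was -0.285 without Trauma replicate 1 and -0.233 after a correction for GC content.

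The ratio of Hey1 to Hes5 was 2.43 ± 0.575 in Control, 3.59 ± 1.3 after injury and 6.11 ± 1.14 with TGF-β1 (n = 4). Trauma+TGF-β1 did not overlap with Control (4.95 to 7.44 against 1.58 to 2.79, exact permutation p = 0.0286, adjusted p = 0.0571). It overlapped with Trauma (exact p = 0.0571, adjusted p = 0.098). This ratio, like those of the receptors, was chosen after the levels had been seen. It pairs a target gene that was higher with TGF-β1 with one that was lower, so the choice itself favoured a separation. Hes5 alone was not called and rested on 34 to 137 reads per library. Of the summed level of the 4 Hes and Hey genes, Hey1 held 59.5% in Control, 66.7% after injury and 75.1% with TGF-β1. The sum itself was 11.4 to 16.9, 13.3 to 14.7 and 14.7 to 16.3 FPKM.

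Hes1 (ENSMUSG00000022528, chr16:30064384-30067796, plus strand), a repressor that several pathways besides Notch induce, was 1.47, 1.33, 2.28 and 1.31 FPKM in Control, 1.13, 1.83, 1.22 and 1.85 after injury and 1.87, 0.975, 1.94 and 1.69 with TGF-β1. The groups overlapped fully and rested on 31 to 73 reads per library. The 95% interval of the log2 difference was -0.61 to 0.47 in Trauma against Control and -0.45 to 0.62 in Trauma+TGF-β1 against Trauma (limma adjusted p = 0.914 and 0.863), so changes within these intervals remain compatible with the values.

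Hey2 (ENSMUSG00000019789, chr10:30832359-30842801, minus strand), the other Hey repressor and the second gene with the RBPJ core in its promoter, had a mean of 0.321 FPKM over the 12 libraries and did not reach the mean of 0.5 FPKM required for the test. It was 0.354, 0.32, 0.471 and 0.339 FPKM in Control, 0.238, 0.2, 0.32 and 0.367 after injury and 0.272, 0.251, 0.404 and 0.313 with TGF-β1, from 16 to 34 reads. The groups overlapped, and exact permutation tests gave p = 0.2 for Trauma against Control, 0.571 for Trauma+TGF-β1 against Trauma and 0.257 for Trauma+TGF-β1 against Control. Without the filter limma gave -0.32, 0.11 and -0.2 on the log2 scale, with adjusted p of 0.684, 0.89 and 0.731.

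Nrarp (ENSMUSG00000078202, chr2:25180758-25183339, plus strand), a Notch target that limits the activity of the intracellular domain, was 2.11, 4.1, 3.57 and 3.42 FPKM in Control, 3.48, 4.68, 3.13 and 3.16 after injury and 4.48, 4.42, 3.88 and 3.99 with TGF-β1. The Trauma+TGF-β1 libraries were all above the Control mean but overlapped with Control replicate 2. The log2 difference between these groups was 0.37 (95% interval -0.02 to 0.76, limma adjusted p = 0.184), and 0.178 without Control replicate 1. It was 0.22 against Trauma (adjusted p = 0.45), and 0.354 without Trauma replicate 2.

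Some members share exon bases with other annotated genes, and whether the counting used strand is not given in the sources used here. How reads in shared bases were assigned is not given either, so the levels of these members may be understated. Few reads on the other gene do not settle this. Gm38287 lies antisense to 79.4% of the exon bases of Nrarp and had 0 reads in all libraries. Gm20421 lies antisense to 31.8% of those of Hes5 and had at most 7 reads. A930024N18Rik lies antisense to 20.5% of those of Dll1. No single other gene shared more than 7.5% of the exon bases of Notch1, Notch2 or Notch3. That largest part belonged to 0610009E02Rik, antisense to Notch1, which had 3 to 18 reads. Gm13568 shared a further 2.91% with Notch1.

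The other genes of the pathway were taken from lists of 63 genes by role, of which 53 passed the filter. In Trauma against Control 4 of them were called higher and 2 lower, in Trauma+TGF-β1 against Trauma 3 higher and 6 lower, and in Trauma+TGF-β1 against Control 4 higher and 6 lower. As shares of the 53 these were 7.55% and 3.77%, 5.66% and 11.3%, and 7.55% and 11.3%, beside 2.7%, 7.71% and 10.4% of all genes called lower and the shares called higher given above. The medians of the list were -0.02, 0.01 and 0.01 on the log2 scale.

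Among the other receptors and ligands, 4 of 7 were tested and none was called after injury or between Trauma+TGF-β1 and Trauma. Jag2, the second Jagged ligand, was 10.1 ± 2.11 FPKM in Control, 9.35 ± 0.527 after injury and 8.16 ± 0.796 with TGF-β1, well above Jag1. Dner, a noncanonical ligand of neurons, was at 97.1, 94.4 and 98.5 FPKM. Dlk2, a noncanonical member of the Delta-like family, fell from 13.0 ± 1.35 in Control to 10.3 ± 1.19 in Trauma+TGF-β1 (log2 difference -0.34, limma adjusted p = 0.0235).

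Of the 4 tested genes that glycosylate the receptors, Lfng (Lunatic fringe, which alters the response to ligands) moved with injury and back. It rose from 7.78 ± 0.372 FPKM in Control to 10.9 ± 1.09 in Trauma (log2 difference 0.47, limma adjusted p = 0.00418) and fell to 8.38 ± 0.696 with TGF-β1 (-0.37 against Trauma, adjusted p = 0.0143), where it overlapped with Control. Rfng, another fringe enzyme, fell between Control (41.6 FPKM) and Trauma+TGF-β1 (37.6 FPKM, adjusted p = 0.0281).

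Of the 10 cleavage genes, none was called after injury. With TGF-β1 against Trauma, Adam17, a protease that can shed receptors, rose from 1.84 ± 0.208 to 2.56 ± 0.161 FPKM (log2 difference 0.46, limma adjusted p = 0.0197) and Ncstn, the nicastrin subunit of γ-secretase, from 19.6 ± 0.463 to 22.7 ± 0.446 FPKM (0.21, adjusted p = 0.0144). Aph1a, another γ-secretase subunit, fell from 13.5 ± 0.749 to 11.5 ± 0.395 FPKM (-0.24, adjusted p = 0.0212). Adam10, the main activating protease, was 24.3, 22.2 and 23.8 FPKM in the 3 groups and was not called.

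Of the 12 genes of endocytosis and turnover, the ubiquitin ligase subunit Fbxw7, which marks the intracellular domain for degradation, was called after injury (24.1 to 26.6 FPKM, log2 difference 0.14, limma adjusted p = 0.0431). With TGF-β1 against Trauma the ubiquitin ligase Itch rose from 5.37 to 6.44 FPKM (0.26, adjusted p = 0.0221) and Dtx1, a Deltex regulator of receptor trafficking, fell from 34.2 to 27.9 FPKM (-0.29, adjusted p = 0.0147). Dtx1 was also lower in Trauma+TGF-β1 than in Control (-0.35, adjusted p = 0.00361), as was Neurl1b (-0.21, adjusted p = 0.0107).

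In the nuclear complex, 16 genes were tested. Rbpj itself was 2.33 ± 0.17, 2.29 ± 0.0856 and 2.55 ± 0.304 FPKM and was not called, nor were the 3 Mastermind genes. The Groucho corepressors went opposite ways after injury: Tle3 rose (9.74 to 12.0 FPKM, log2 difference 0.30, limma adjusted p = 0.0158) and Tle1 fell (13.0 to 10.8 FPKM, -0.27, adjusted p = 0.0176). With TGF-β1 against Trauma Tle3 fell (-0.23, adjusted p = 0.0383). Kat2b, an acetyltransferase, was higher in Trauma+TGF-β1 than in Control (0.45, adjusted p = 0.0241).

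Among the other helix-loop-helix and proneural genes, 7 of 13 were tested, and the calls were mainly of the Id genes, inhibitors of differentiation that respond to bone morphogenetic proteins as well as to Notch. Id3 rose from 2.52 ± 0.538 FPKM in Control to 5.38 ± 0.282 in Trauma (log2 difference 1.08, limma adjusted p = 0.00075) and fell to 3.5 ± 0.406 with TGF-β1 (-0.61 against Trauma, adjusted p = 0.018). With TGF-β1 it was still called higher than in Control (0.48, limma adjusted p = 0.0337), although the libraries overlapped. Id4 fell from 7.91 to 5.63 FPKM between Trauma and Trauma+TGF-β1 (-0.49, adjusted p = 0.0178), and Id2 from 108.0 to 93.5 FPKM after injury (-0.21, adjusted p = 0.0376). Hes6 was lower in Trauma+TGF-β1 than in Control (-0.48, adjusted p = 0.0454).

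**Figure D4:**
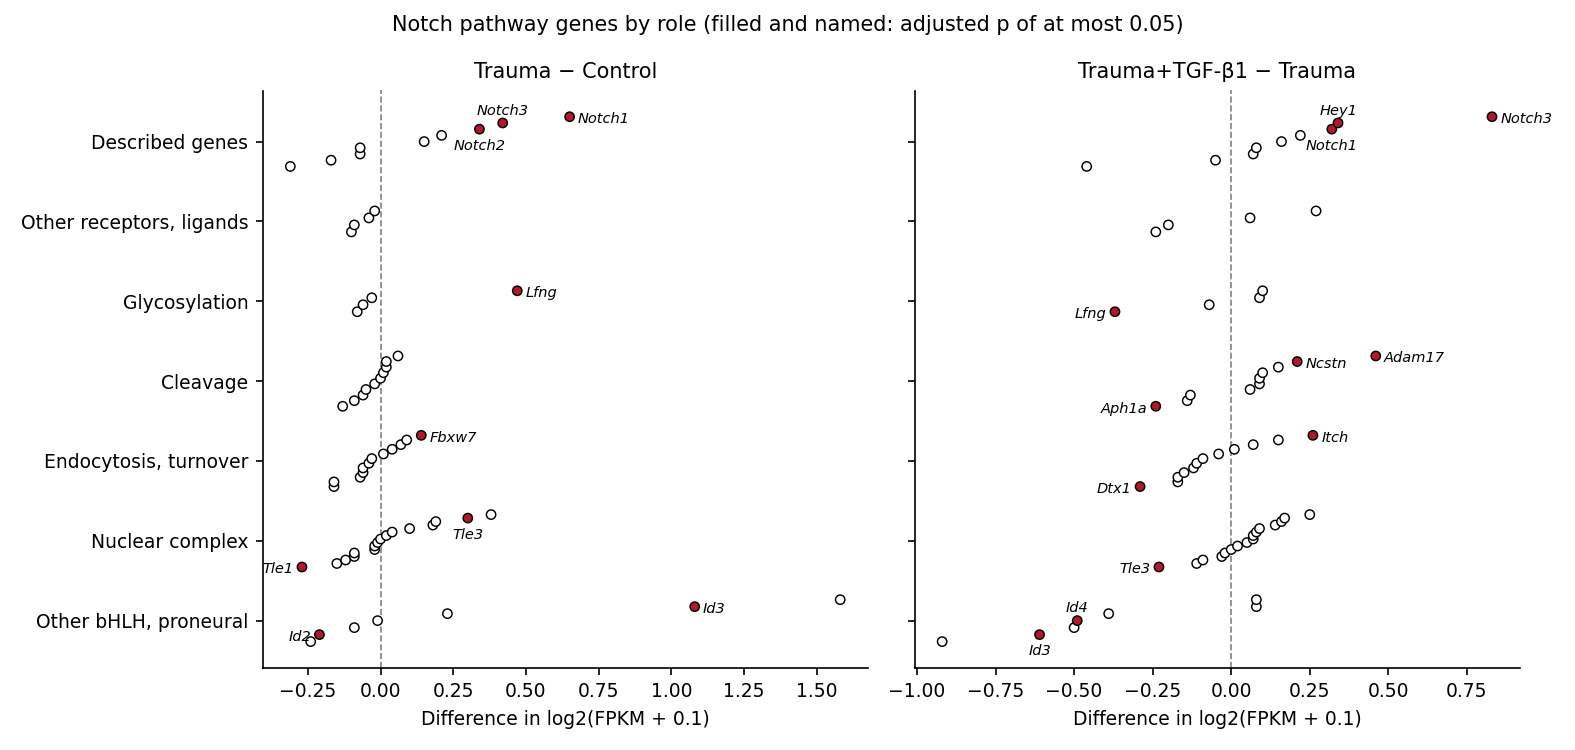
Difference in log2(FPKM + 0.1) of the 9 described genes and the other 53 tested pathway genes, by role, after injury (left) and with TGF-β1 in injured cultures (right). Each point is a gene, and filled points are named and passed this threshold of limma. Among the filled points on the right Notch3 has the largest difference (0.83), with Id1, which was not called, farthest to the left (-0.92), and Lfng and Id3 are to the right of 0 after injury (0.47 and 1.08) and to the left of 0 with TGF-β1 (-0.37 and -0.61).

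Genes that TGF-β is known to induce gave a check of the treatment label. Of 8 such genes 6 were tested, and Ccn2 (3.53 to 10.8 FPKM), Ccn1 (16.5 to 27.2 FPKM) and Fn1 (2.91 to 4.95 FPKM) rose in Trauma+TGF-β1 against Trauma (limma adjusted p = 3.1e-07, 0.0196 and 0.0017). Smad7, the inhibitory Smad, was 2.95 FPKM in Trauma and 2.05 with TGF-β1 (adjusted p = 0.0543), and was called lower in Trauma+TGF-β1 than in Control (3.02 FPKM, log2 difference -0.54, adjusted p = 0.0338), against the direction known for this gene. Ccn1, Ccn2 and Skil were already called higher in Trauma against Control, the comparison without added TGF-β1.

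Markers of other cell types also differed between the groups, though not always in the comparisons or the direction of the receptors, and their part in the receptor levels was not tested. In Trauma against Control 8 of the 10 markers of astrocytes and radial glia rose, among them Gfap (47.7 to 87.3 FPKM), Aqp4 (11.0 to 17.1) and Fabp7 (138.0 to 188.0), and the summed level did not overlap between the groups (exact permutation p = 0.0286, adjusted p = 0.0454 over 27 tests). Between Trauma+TGF-β1 and Trauma, where Notch3, Notch1 and Hey1 rose, this sum overlapped (exact p = 0.114, adjusted p = 0.147): Aqp4 rose to 21.4 FPKM, whereas Aldh1l1, Fabp7, Gja1 and Aldoc fell. Markers of dividing progenitors summed to 23.7 to 32.5 FPKM in Control, 37.2 to 43.8 after injury and 28.6 to 34.0 with TGF-β1. The lower sum with TGF-β1 was that of Sox2, which fell from 26.4 to 18.3 FPKM (adjusted p = 0.0215), whereas Mki67 (0.251, 0.82 and 0.858 FPKM), Top2a (0.608, 1.76 and 1.73) and Nes (6.54, 9.17 and 9.0) were called higher than in Control in both injured groups.

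The 5 markers of mural cells, the cells of vessels in which Notch3 is best known, summed to 3.59 to 3.97, 5.89 to 7.08 and 8.13 to 10.0 FPKM in Control, Trauma and Trauma+TGF-β1, without overlap (exact permutation p = 0.0286, adjusted p = 0.0454 in each comparison). The rise of the sum, and most of the sum in both injured groups, was that of Acta2, smooth muscle actin, at 1.38, 4.43 and 6.94 FPKM. No other mural marker was called higher in any comparison, so the test of the sum mainly reflects this gene. Pdgfrb was 0.894, 1.24 and 1.37 FPKM and was not called, although its Trauma+TGF-β1 libraries (1.2 to 1.46) lay above its Control libraries (0.439 to 1.15). Rgs5 (0.394, 0.373 and 0.337 FPKM) and Kcnj8 (no more than 0.0503 FPKM in any library) did not pass the filter. Vtn was at 1.05, 0.472 and 0.452 FPKM and was called lower in Trauma+TGF-β1 than in Control (log2 difference -1.04, limma adjusted p = 0.0326). The 6 endothelial markers summed to at most 0.58 FPKM in any library and none passed the filter. Oligodendrocyte markers summed to 40.9 to 46.2, 53.3 to 60.9 and 53.4 to 59.3 FPKM, microglial markers to 8.41 to 12.0, 14.1 to 14.9 and 10.9 to 14.5, and fibroblast markers to 1.26 to 2.13, 1.69 to 3.06 and 2.21 to 3.12.

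The genes whose levels were most like those of a called member were found by Pearson's r of log2 values over the 12 libraries among 11022 genes. The points fall into the 3 groups, so r mainly reflects the differences between groups and is given as a description. Nearest to Notch1 were Acta2 (r = 0.978), Sparc (0.973) and Cd109 (0.973), and nearest to Notch2 were Ctnna1 (0.98), Slc38a3 (0.977) and Palld (0.975). Nearest to Notch3 were Rhbdf1 (0.987), Igfbp3 (0.978) and Ampd3 (0.976). Hey1 had a lower best match, with Kctd5 (0.945), Plce1 (0.929) and Col5a2 (0.927). Among the members, r was 0.95 between Notch1 and Notch2, 0.9 between Notch1 and Notch3 and 0.92 between Notch3 and Hey1, and -0.44 between Hes5 and Hey1.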

How the data were processed

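Polyadenylated RNA of 12 libraries was sequenced as paired-end reads. According to the methods and the submitters' processing notes, reads were aligned with HISAT2 2.0.5 (mm10 and CASAVA are also named), assembled with StringTie 1.3.3b and counted per gene with featureCounts 1.5.0-p3. From these the authors computed FPKM, the unit of the deposited table, which holds 55901 genes with their lengths in base pairs. The methods describe fewer samples than the 12 libraries in the table. The authors' own calls of changed genes were made on counts and were not used here. FPKM multiplied by gene length gave whole reads for 100.0% of values (tolerance 0.01). The deposited FPKM were already scaled by medians of ratios over the 17640 genes above 0 in all libraries (factors of 1.0062 in each library), so the planned median-of-ratios scaling left them as deposited.

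Genes with a mean of at least 0.5 FPKM over the 12 libraries were tested (15016). limma 3.58.1 in R 4.3.3 was fitted to log2(FPKM + 0.1) in 1 fit of the 3 groups (eBayes with trend), two-sided, with Benjamini-Hochberg adjustment over all tested genes of a comparison and a threshold of 0.05. The fit was tested on simulated data. Measures with 1 value per library were tested by exact permutation (two-sided, 70 assignments of 4 against 4 libraries). All 10 members are named, other pathway genes where they were called, and others as the neighbours and markers described. The members and the lists were chosen with earlier results of these data known. A gene of the nuclear complex list is not reported here and was left out of the list counts. Alternatives were pseudocounts of 1 and 0.01, no filter or a filter at 1 FPKM, quantile normalization, fits of 2 groups, a robust fit, the replicate number as a block, corrections for gene length and for GC content (known for 14699 of the tested genes) with and without the block, voom on the recovered reads, leaving out each library, and, chosen after seeing the data, FPKM rescaled to the total of reads on genes. Promoters came from RefSeq (GRCm38.p6), and gene coordinates and exon overlaps from GENCODE (GRCm38). Tables and figures were made with Python 3.11.15, pandas 2.3.3, numpy 2.4.6, scipy 1.17.1 and matplotlib 3.10.9.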

Additional observations from a re-analysis of the deposited data

Results flagged for a closer look

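The 30 sets of 4 libraries (10 genes in 3 groups) were searched for a library far from the others by Dixon's ratio of the gap to the range and those past its 95% critical value are given. Chance gives about 1 such set in 20. Hes1 was 2.28 FPKM in Control replicate 3 and 1.31 to 1.47 in the other Control libraries (ratio 0.834). Hes5 was 5.91 FPKM in Control replicate 2 and 2.62 to 2.89 in the others (ratio 0.918). Hey1 was 8.39 FPKM in Trauma replicate 2 and 9.35 to 9.48 in the others (ratio 0.882).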

How the results depend on the processing

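The calls of Notch1, Notch2, Notch3 and Hey1 in Trauma+TGF-β1 against Control, of Notch1 and Notch2 in Trauma against Control, and of Notch3 in Trauma+TGF-β1 against Trauma held under all 15 alternatives and each of the 12 libraries left out. The 15 include the FPKM as deposited, which differ from the main fit only by an equal factor in each library and so had to give the same calls. The exceptions among called members (Notch1 and Hey1 with TGF-β1 against Trauma, Notch3 after injury) stand beside their values above, except for the fits with a replicate block, given below. With libraries left out, the members called numbered 2 to 3 in Trauma against Control, 1 to 3 in Trauma+TGF-β1 against Trauma (Notch3 alone without Trauma replicate 2 or Trauma+TGF-β1 replicate 2 or 4) and 4 in Trauma+TGF-β1 against Control.

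The number of all genes called moved more. In Trauma against Control it was 901, with 575 without a filter, 518 in the fit of 2 groups and 484 to 863 with a library left out. In Trauma+TGF-β1 against Trauma it was 1819, with 987 without a filter, 882 after the GC correction and 653 to 2547 with a library left out. In Trauma+TGF-β1 against Control it was 2487, with 1601 in the fit of 2 groups and 1466 to 3392 with a library left out. The cause of these shifts was not tested.

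Deviations from the group mean correlated at -0.0088 to 0.0762 between libraries of different groups with the same replicate number. Between those with different numbers the range was -0.0912 to 0.0733. On the third principal component replicates 3 and 4 lay below replicates 1 and 2 in each group. What the replicate numbers stand for is not given. With the replicate number as a block 786, 1517 and 2267 genes were called in the 3 comparisons, and the call of Notch1 in Trauma+TGF-β1 against Trauma was lost (adjusted p = 0.0596, and 0.243 with the length correction as well). Block and length correction together gave 885 calls in Trauma+TGF-β1 against Trauma, and block and GC correction 752.

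Signs turned only among differences that were not called. Notch2 in Trauma+TGF-β1 against Trauma was -0.017 after the length correction with or without the block, and Dll1 was 0.035 after the GC correction with or without it. In Trauma+TGF-β1 against Control, Jag1 was 0.0 with voom and 0.027 with FPKM rescaled to the total of reads on genes, and Hes1 was -0.054 after quantile normalization. With libraries left out, Hes1 ranged from -0.175 to 0.102, -0.033 to 0.292 and -0.088 to 0.221 in the comparisons in the order given above, Nrarp from -0.046 to 0.261 in Trauma against Control and Jag1 from -0.111 to 0.128 in Trauma+TGF-β1 against Control.

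Depth limits Hes1, Hes5, Hey2 and Jag1, whose reads per library are few, more than the receptors.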
